A study of Mus musculus with 2 samples.

Results

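The genes described here are *Ly6a*, *Ly6c1*, *Ly6c2* and *Ly6e* of the Ly6 family and *Gpihbp1*, 5 of the 32285 genes in the deposited tables, chosen by their symbols. They were measured by 3′ single-cell RNA-seq in CD146-sorted liver endothelial cells, with 1 library per condition and the livers of 3 mice pooled in each. The control library, labelled WT, came from littermates that lacked the *Clec4g*-iCre transgene and carried 1 or 2 floxed *Maf* alleles (*Clec4g*-iCre wt/wt with *Maf* fl/fl or fl/wt), and the Maf LSEC-KO library, labelled KO, from mice with 1 copy of the transgene and both *Maf* alleles floxed (*Clec4g*-iCre tg/wt with *Maf* fl/fl), in which the *Clec4g* promoter drives Cre in liver sinusoidal endothelial cells (LSECs) from late fetal life on. The age and sex of the pooled mice are not stated for these libraries. As a condition is 1 library, no test between conditions was possible, and every interval below is a 95% interval for counting error only.

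Ly6 proteins are small cysteine-rich proteins that fold into finger-like loops and sit on the cell surface through a glycosylphosphatidylinositol (GPI) anchor. LY6A is Sca-1, used to sort stem and progenitor cells and also found on capillary endothelium. LY6C, encoded by the near-identical genes *Ly6c1* and *Ly6c2*, separates classes of mouse monocytes, and *Ly6c1* is known from the endothelium of continuous capillaries as well. LY6E is an interferon-inducible member of the family with a broad distribution. GPIHBP1 has the same fold with an added acidic stretch, and it carries lipoprotein lipase from the tissue across capillary endothelial cells to the lumen.

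All 5 genes lie on mouse chromosome 15, within 644 kb, and are annotated as protein-coding (mm10, positions from GENCODE M21). *Ly6e* lies at chr15:74955051-74959905 on the plus strand, *Ly6a* at chr15:74994877-74998031, *Ly6c1* at chr15:75044018-75048830 and *Ly6c2* at chr15:75108158-75111970 on the minus strand, and *Gpihbp1* at chr15:75596628-75599481 on the plus strand. The gaps between neighbours are 35.0, 46.0, 59.3 and 485 kb in this order. No other annotated gene overlaps any of them. The Ly6 genes among the members are thus close neighbours, while *Gpihbp1* stands at the far end of the stretch.

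*Ly6c1* and *Ly6c2* are shown in sequence because they are near-identical genes with different levels in LSECs. The 250 bases before the most upstream start of each (RefSeq, GRCm38.p6, minus strand) are printed 5′ to 3′, with capitals for bases inside the aligned stretch that have no identical partner in the other gene. The unaligned ends, at the start of *Ly6c1* and the end of *Ly6c2*, are in lower case too.
*Ly6c1*, chr15:75048838-75049087: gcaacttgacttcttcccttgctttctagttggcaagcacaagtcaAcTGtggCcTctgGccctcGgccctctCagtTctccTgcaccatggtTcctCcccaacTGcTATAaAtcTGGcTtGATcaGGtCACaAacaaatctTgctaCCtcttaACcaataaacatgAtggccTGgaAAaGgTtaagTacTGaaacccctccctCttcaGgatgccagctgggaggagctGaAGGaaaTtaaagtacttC
*Ly6c2*, chr15:75111972-75112221: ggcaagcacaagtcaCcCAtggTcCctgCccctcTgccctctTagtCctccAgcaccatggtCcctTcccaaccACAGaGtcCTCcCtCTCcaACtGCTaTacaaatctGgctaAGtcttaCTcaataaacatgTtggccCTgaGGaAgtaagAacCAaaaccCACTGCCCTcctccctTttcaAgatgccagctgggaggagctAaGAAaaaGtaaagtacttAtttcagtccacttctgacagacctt
Of 216 aligned bases, 164 (75.9%) were identical. Both strands were searched for 6 short motifs. The Maf recognition core TGCTGA, held by 16.1% of the 32851 promoter entries of this length, was in neither window. The AP-1 motif TGANTCA (6.75% of entries), the GATA motif AGATAA (9.99%), the interferon response motif GAAANNGAA (7.13%) and the gamma-activated site TTCNNNGAA (7.02%) were also in neither. The ETS motif AGGAAG, held by 29.5% of entries, was found once, in *Ly6c2*, where it begins 107 bases before the start. A motif that is missing here is missing only from these letters.

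The reads of a 3′ library fall near the end of the transcript, where *Ly6c1* and *Ly6c2* are much alike. The first annotated protein-coding transcripts of both genes were identical at 802 of 822 aligned bases (97.6%), and their last 300 bases at 287 of 293. Within these last 300 bases, 16.6% of all stretches of 90 bases, and 29.9% of those of 50 bases, occurred in both genes. No such stretch of *Ly6a*, *Ly6e* or *Gpihbp1* occurred in any other annotated gene. The counts of *Ly6c1* and *Ly6c2* therefore leave out or could share a part of their reads, whereas the other members do not have this limit.

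The tables held 5664 barcodes with 47681895 UMIs for control and 7091 barcodes with 89872764 UMIs for Maf LSEC-KO, and 10 barcodes occurred in both libraries. After the minima of 1500 UMIs and 750 genes, removal of doublets, selection of endothelial-like clusters and exclusion of cells with a *Vwf* UMI, 4104 control and 3252 Maf LSEC-KO cells remained, called LSECs below, with medians of 8394.5 and 13870.5 UMIs. The *Vwf* rule took 3.77% of control and 26.7% of Maf LSEC-KO endothelial cells. In 2 control and 3 Maf LSEC-KO clusters the genes that led the cluster were those of hepatocytes, red blood cells, platelets or stellate cells, so values without these clusters (3116 and 952 LSECs left) are given beside the main ones. The UMIs of the 6 erythroid marker genes summed to 1250 for control LSECs and 14.4 for Maf LSEC-KO LSECs per 1000000 UMIs, and the part of this difference in the results was not tested. The 14 endothelial marker genes were found in over 50% of LSECs in both libraries, and of 8 LSEC marker genes all 8 were in control and 5 in Maf LSEC-KO. A control cluster of 136 cells led by *Spp1*, *Tm4sf4* and *Clu* also had 14 of the 14 endothelial genes in over 50% of cells, but was not taken as endothelial-like because a gene of another cell type was as widely found, and it had 5.40 CPM of *Ly6c1* (2.17 to 11.1), 1160 CPM of *Ly6a*, 729 CPM of *Ly6e* and 1721 CPM of *Gpihbp1*.

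Levels are given as CPM, the UMIs of a gene per 1000000 UMIs of all genes but the mitochondrial and ribosomal protein genes. *Maf*, the deleted gene, had a level of 3464 CPM among control LSECs, against 125 CPM among those of Maf LSEC-KO. *Ly6c1* had 270 UMIs in control LSECs, or 8.20 CPM (7.25 to 9.24). In Maf LSEC-KO LSECs it had 23814 UMIs, or 592 CPM (585 to 600). It was 72.2-fold higher in Maf LSEC-KO (64.0 to 81.7), the 4th largest ratio of 4512 genes with at least 50 CPM in either library. *Ly6a* had a control level of 1092 CPM (1081 to 1104) and a Maf LSEC-KO level of 3544 CPM (3525 to 3562), 3.24-fold higher. The control level of *Ly6e* was 621 CPM (613 to 630) and its Maf LSEC-KO level 1458 CPM (1446 to 1470), 2.35-fold higher.

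*Gpihbp1* was nearly level between the libraries, with 1977 CPM (1962 to 1992) for control and 2026 CPM (2012 to 2040) for Maf LSEC-KO cells, a ratio of 1.02. On the log2 scale this is 0.04 (0.02 to 0.05), less than the median of 0.11 over the same 4512 genes, and its sign turned when CPM was scaled by the UMIs of all genes (−0.15) or by the median of ratios (−0.070). *Ly6c2* was close to absent from LSECs, with 12 UMIs in 12 control cells and 37 UMIs in 33 Maf LSEC-KO cells, or 0.36 CPM (0.19 to 0.64) and 0.92 CPM (0.65 to 1.27). Its ratio of 2.52 had an interval from 1.29 to 5.32. The members thus ranged from a gene with a ratio near 1 to one of 72.2.

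Of the 4 members with at least 50 CPM in either library, *Ly6a*, *Ly6c1* and *Ly6e* were at least 2-fold higher in Maf LSEC-KO and none was 2-fold lower. Over all 4512 genes past this minimum, 8.13% were at least 2-fold higher and 5.54% at least 2-fold lower. *Ly6c1* passed the minimum only through the Maf LSEC-KO library, so it had to differ. Without the clusters led by genes of other cell types the log2 ratios were 5.80 for *Ly6c1* (6.17 with them), 1.40 for *Ly6a* (1.70), 1.10 for *Ly6e* (1.23), 1.09 for *Ly6c2* (1.34) and −0.18 for *Gpihbp1* (0.04). This also changed the make-up of the cells. Among those left out were the 1000 Maf LSEC-KO LSECs of the cluster led by *Hbb-bs*. They held 55.6% of the *Ly6c1* and 51.5% of the *Ly6a* UMIs of Maf LSEC-KO LSECs. *Ubd*, *Rsad2* and *Ifit3* were also among the leading genes of that cluster. Of the 952 Maf LSEC-KO LSECs left, 638 were of a cluster led by genes of mitosis, with 2844 CPM of *Ly6a*. Another 198 were of a cluster with 2340 CPM of *Maf* and 1305 CPM of *Ly6a*. The part of this change in the ratios was not tested. With the *Vwf*-positive endothelial cells kept, the log2 ratio of *Ly6c1* was 5.53 and that of *Ly6a* was 1.63.

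**Figure D1:**
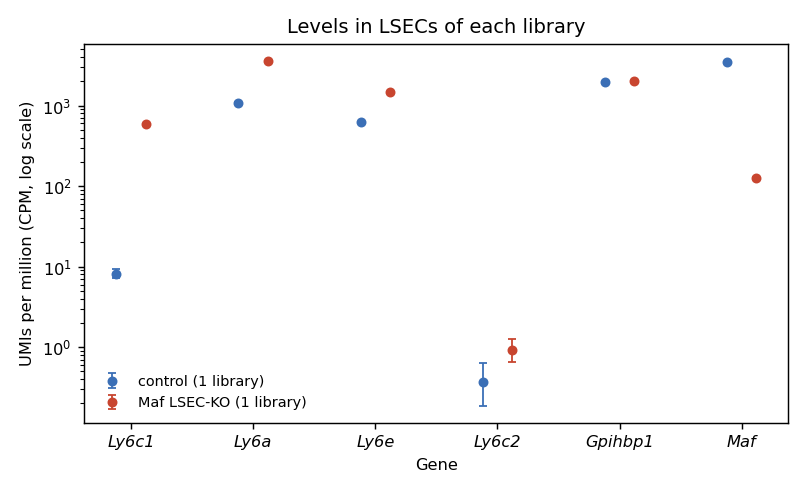
Level of each gene in the LSECs of each library, in CPM on a log scale, with exact 95% Poisson intervals; each point is 1 library. *Ly6c1* stands at 8.20 CPM in control and 592 CPM in Maf LSEC-KO, while the points of *Gpihbp1* lie at 1977 and 2026 CPM.

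The levels were carried by different shares of cells. After each LSEC was thinned to 2700 UMIs, which 3698 control and 3065 Maf LSEC-KO LSECs reached, *Ly6c1* had a UMI in 1.38% of control (1.03 to 1.81) and 51.1% of Maf LSEC-KO LSECs (49.3 to 52.9). Before thinning these shares were 3.34% and 75.7%. *Ly6a* was found in 67.8% of thinned control and 93.7% of thinned Maf LSEC-KO LSECs, and *Ly6e* in 64.6% and 86.6%. *Gpihbp1* was found in 94.6% (93.8 to 95.3) and 93.4% (92.4 to 94.2), and *Ly6c2* in 0.19% and 0.23%.

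The number of UMIs per cell with a UMI was higher in Maf LSEC-KO for 4 of the members, in a deeper library. The median was 1 for *Ly6c1* in control and 6 in Maf LSEC-KO, 7 and 28 for *Ly6a*, 4 and 14 for *Ly6e*, and 14 and 21 for *Gpihbp1*, at median depths of 8394.5 and 13870.5 UMIs over all LSECs, and for *Ly6c2* it was 1 in both. The 1% of LSECs with the most *Ly6c1* UMIs held 63.0% of them in control (42 cells) but 8.57% in Maf LSEC-KO (33 cells). For *Ly6a*, *Ly6e* and *Gpihbp1* the same 1% held between 4.34% and 9.08% of the UMIs in either library. For the sparse *Ly6c2* it held 100% in both, so this share depends on the level of a gene. A *Ly6c1* UMI was found in few control LSECs and in most Maf LSEC-KO LSECs.

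The few *Ly6c1* UMIs of control LSECs gathered in a cluster of the control library that is led by *Igfbp5*, *Nrg1*, *Vegfc* and *Jag1*. Its 167 *Vwf*-negative cells held 117 of the 270 UMIs (43.3%), at 97.0 CPM (80.2 to 116), with a UMI in 25.1% of cells. In the other 6 endothelial clusters of control, *Ly6c1* was between 1.18 and 6.12 CPM. The same 167 cells were highest for *Ly6a* too, at 3518 CPM against 487 to 1610 CPM in the other clusters, and they had 2472 CPM of *Gpihbp1* and 1063 CPM of *Ly6e*. The 67 cells of this cluster that had a *Vwf* UMI, which are not LSECs by the rule, had 222 CPM of *Ly6c1* and 6468 CPM of *Ly6a*. The clusters of each library were made without the members but from other genes of the same cells, so these levels are a description.

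Among the endothelial clusters of Maf LSEC-KO, *Ly6c1* was lowest, at 75.8 CPM, in the 198 LSECs of the cluster led by *Dnase1l3* and *Maf*, in which *Maf* was at 2340 CPM, a level of *Ly6c1* also reached in cells that are not endothelial. In the other 6 clusters it ranged from 296 CPM to 1147 CPM, and the 85 LSECs of the cluster led by *Npr3* and *Gja5* were highest. This cluster was also highest for *Ly6a*, at 6777 CPM, and for *Ly6e*, at 2199 CPM. *Gpihbp1* varied less, from 1207 CPM in the cluster with stellate cell genes to 2413 CPM.

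When the LSECs of both libraries were clustered together, with the members and the other Ly6 family genes left out of the clustering, 8 clusters were found, and 4 of them (2, 3, 7 and 8) held 3056 of the 3252 Maf LSEC-KO LSECs but 88 control cells. Cluster 2 (1361 Maf LSEC-KO cells), led by the interferon-regulated genes *Ccl5*, *Apol9a*, *Ubd* and *Oas3* beside *Ly6c1*, had 937 CPM of *Ly6c1* (922 to 951), 5244 CPM of *Ly6a*, 1897 CPM of *Ly6e* and 2380 CPM of *Gpihbp1*. Cluster 3 (1060 cells), led by *Astn1*, *Kcne3* and *Esm1*, had 259 CPM of *Ly6c1* (250 to 269), 2225 CPM of *Ly6a*, 960 CPM of *Ly6e* and 1865 CPM of *Gpihbp1*. *Maf* was at 26.0 CPM in cluster 2 and 35.9 CPM in cluster 3. The cells of cluster 7 (540 cells), led by genes of mitosis, had 476 CPM of *Ly6c1* and 2753 CPM of *Ly6a*. Cluster 8 (95 cells), in which 7 of the 10 stellate cell markers were among the leading 50 genes, had 645 CPM of *Ly6c1* and 1823 CPM of *Ly6e*.

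Between clusters 2 and 3, the log2 ratio of *Ly6c1* was 1.85 (1.80 to 1.91). The summed level of 28 interferon-stimulated genes was 12876 CPM in cluster 2 and 5804 CPM in cluster 3, and 9413 CPM over all Maf LSEC-KO LSECs against 6196 CPM in control. The 10 control cells that fell into cluster 2 had 50427 CPM of these genes, 1708 CPM of *Ly6a* and 1033 CPM of *Ly6e*, but 1 UMI of *Ly6c1* (10.5 CPM, 0.27 to 58.7). These few control cells also had 1339 CPM of *Maf*, against 26.0 CPM in the Maf LSEC-KO cells of the cluster. As the interferon-stimulated genes and *Maf* both differed, their parts in the level of *Ly6c1* cannot be told apart.

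The remaining 4 clusters held mostly control cells and 196 Maf LSEC-KO cells with 2463 CPM of *Maf*. These 196 cells had 57.3 CPM of *Ly6c1* (45.9 to 70.6), 1223 CPM of *Ly6a*, 718 CPM of *Ly6e* and 1544 CPM of *Gpihbp1*, against 8.43, 1108, 613 and 2006 CPM in the 4016 control cells of the same clusters. *Ly6a* and *Ly6e* in these Maf LSEC-KO cells were thus near the control level, and *Gpihbp1* was below it.

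**Figure D2:**
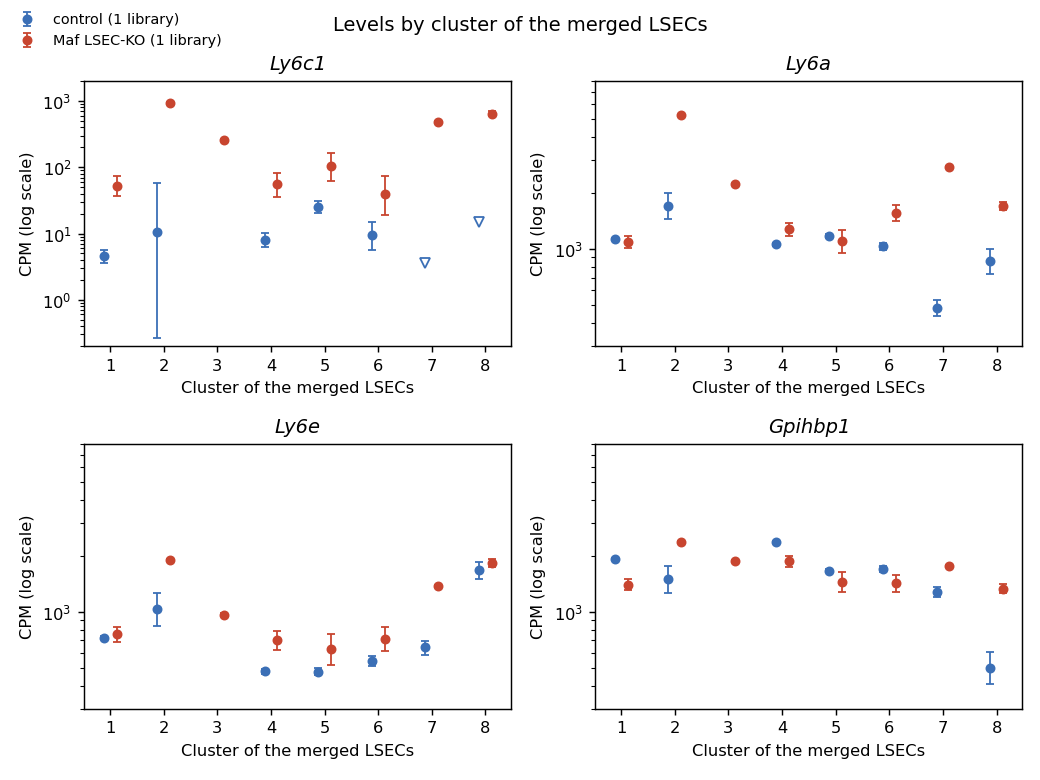
Level of 4 members by cluster of the merged LSECs, in CPM on a log scale with exact 95% Poisson intervals, for control (blue) and Maf LSEC-KO cells (red) of each cluster; groups of fewer than 10 cells are left out, and open triangles mark the limit that a count of 0 allows. In clusters 1, 4 and 5 the *Ly6a* points of both libraries lie close together, and in cluster 6 at 1031 CPM (control) and 1556 CPM (Maf LSEC-KO). In clusters 2, 3 and 7 the Maf LSEC-KO points of *Ly6c1* lie between 259 and 937 CPM.

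LSECs were also classed by their own *Maf* UMIs after thinning. In Maf LSEC-KO, *Ly6c1* was at 623 CPM (615 to 631) in the 2730 cells with 0 *Maf* UMIs, 474 CPM (441 to 509) in the 134 cells with 1, 191 CPM (164 to 222) in the 90 cells with 2 to 4, and 56.5 CPM (42.6 to 73.6) in the 111 cells with at least 5. *Ly6a* was at 3680, 3096, 1541 and 1258 CPM and *Ly6e* at 1493, 1384, 1006 and 695 CPM in the same order. *Gpihbp1* was at 2065, 1798, 1596 and 1457 CPM. All 4 genes were thus lower in the thinned classes with more *Maf* UMIs, *Ly6c1* by far the most. With the classes taken from all UMIs the steps were not alike. *Ly6c1* was then at 633, 566, 576 and 124 CPM and *Ly6a* at 3695, 3619, 3520 and 1356 CPM in the same order. Most of the fall thus came in the class with at least 5 *Maf* UMIs. With the classes taken from all UMIs the log2 ratio of *Ly6c1* between at least 5 and 0 *Maf* UMIs was −2.35, and with thinned classes −3.46.

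In control the classes with few *Maf* UMIs were small. *Ly6c1* was at 22.1 CPM (8.90 to 45.6, from 7 UMIs) in the 46 control LSECs with 0 *Maf* UMIs and at 6.29 CPM (5.36 to 7.33) in the 2874 with at least 5. *Ly6a* was at 1445 and 1042 CPM, *Ly6e* at 800 and 620 CPM, and *Gpihbp1* at 1442 and 1964 CPM. Control LSECs were therefore also ranked by thinned *Maf* UMIs and divided into 3 classes of 1525, 1163 and 1010 cells. From the lowest to the highest class, *Ly6c1* was at 12.6, 6.48 and 3.87 CPM, *Ly6a* at 1276, 1087 and 872 CPM, *Ly6e* at 652, 631 and 579 CPM, and *Gpihbp1* at 2087, 2045 and 1808 CPM. The control cluster led by *Igfbp5*, which held 117 of the control *Ly6c1* UMIs, had the lowest *Maf* level of the control clusters, 2115 CPM. Its part in the order of *Ly6c1* was not tested.

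**Figure D3:**
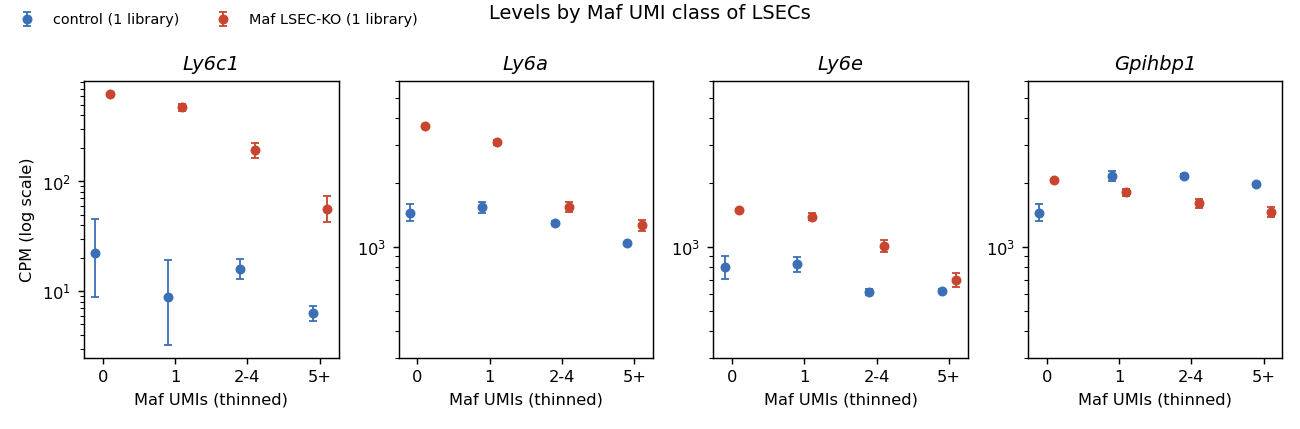
Level of 4 members in LSECs by the number of *Maf* UMIs after thinning, in CPM on a log scale with exact 95% Poisson intervals, for control (blue) and Maf LSEC-KO (red). In Maf LSEC-KO *Ly6c1* goes from 623 CPM in cells with 0 *Maf* UMIs to 56.5 CPM in cells with at least 5, and the *Ly6a* points of both libraries come together at 1042 and 1258 CPM.

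In control LSECs *Ly6a*, *Ly6c1* and *Gpihbp1* also differed by zone. In those with at least 3 thinned UMIs of the periportal genes (*Efnb2*, *Dll4*, *Ltbp4*, *Msr1*, *Ntn4*, *Adgrg6*), *Ly6a* was at 1357 CPM and *Ly6c1* at 13.4 CPM, against 692 and 1.45 CPM in cells with 0. By the pericentral genes (*Wnt2*, *Rspo3*, *Cdh13*, *Wnt9b*) the order was the opposite, with 797 CPM of *Ly6a* and 1.36 CPM of *Ly6c1* in cells with at least 3 UMIs and 1312 and 13.5 CPM in cells with 0. *Gpihbp1* was likewise at 2197 CPM in cells with at least 3 periportal UMIs and 1613 CPM in those with 0. *Ly6e* differed less, at 570, 555 and 678 CPM with 0, 1 to 2 and at least 3 periportal UMIs. By pericentral UMIs it was at 662, 579 and 611 CPM. The *Ly6c1* levels of these zone classes all lie inside the control T/NK cell-like interval (0.14 to 31.7 CPM), which rests on 1 UMI. *Adgrg6*, of the periportal list, was among the leading genes of the control cluster led by *Igfbp5*, which held 43.3% of the control *Ly6c1* UMIs. The part of this cluster in the zone values was not tested. In Maf LSEC-KO the periportal classes differed little, with *Ly6a* between 3387 and 3746 CPM and *Ly6c1* between 581 and 636 CPM. Only 36 Maf LSEC-KO LSECs had at least 3 pericentral UMIs, and these had 281 CPM of *Ly6c1* and 1984 CPM of *Ly6a*. The summed pericentral genes were at 587 CPM in the Maf LSEC-KO cells of merged cluster 1, which had 2741 CPM of *Maf*. In clusters 2 and 3 the same sum was 64.7 and 24.9 CPM. The part of cells with *Maf* in the values of the 36 cells was not tested. Maf LSEC-KO LSECs with at least 2 thinned UMIs of proliferation genes (494 cells) had 459 CPM of *Ly6c1* and 2725 CPM of *Ly6a*, and the other 2571 had 628 and 3763 CPM. In control 77 LSECs were in this class, with 0 UMIs of *Ly6c1*, which allows up to 3.0 CPM, 556 CPM of *Ly6a* and 1347 CPM of *Gpihbp1*, against 8.36, 1115 and 2013 CPM in the other 3621.

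Outside LSECs, *Ly6c1* and *Ly6c2* parted by cell type. *Ly6c2* was at 541 CPM in control and 833 CPM in Maf LSEC-KO T/NK cell-like cells, and at 93.4 and 239 CPM in neutrophil-like cells. It was at 757 CPM in an unnamed Maf LSEC-KO cluster of 70 cells led by *Cd209a*, *H2-Eb1* and *Ccr2*. In control macrophage-like cells 420 UMIs of *Ly6c2* (277 CPM) came from 15 of 219 cells, while 389 Maf LSEC-KO macrophage-like cells had 3 UMIs. Of the UMIs of both genes together, *Ly6c1* made up 99.8% in Maf LSEC-KO LSECs (99.79 to 99.89) and 95.7% in control LSECs, but 5.06% in Maf LSEC-KO T/NK cell-like cells and 0.24% in control macrophage-like cells. These levels too are a description.

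In control, *Ly6c1* stood at 0.66 CPM (1 UMI, 0.017 to 3.68) in macrophage-like cells, at 0 UMIs in 40 neutrophil-like cells, which allows up to 18.7 CPM, at 7.14 CPM (1.47 to 20.9) in B cell-like and at 5.70 CPM (0.14 to 31.7) in T/NK cell-like cells. Of the control LSEC clusters other than the one led by *Igfbp5*, those at 1.18 and 2.46 CPM lie inside the macrophage-like interval, and those at 4.18 to 6.12 CPM lie above it but inside the wide B cell-like and T/NK cell-like intervals, which rest on 3 UMIs and 1 UMI. At this depth these clusters were not told apart from background. In Maf LSEC-KO it was found in every class, at 88.9 CPM in macrophage-like, 77.0 CPM in B cell-like, 44.4 CPM in T/NK cell-like, 34.2 CPM in neutrophil-like and 15.3 CPM in cholangiocyte-like cells. The share of macrophage-like cells with a UMI of it was 17.2% at a median of 4554 UMIs, against 75.7% of LSECs at 13870.5. *Clec4g*, a gene of LSECs, was found in the same classes, and for 1 UMI of it there were 0.44 UMIs of *Ly6c1* in macrophage-like, 0.42 in B cell-like, 0.52 in T/NK cell-like, 0.20 in neutrophil-like and 0.57 in cholangiocyte-like cells, against 0.39 in LSECs. In Maf LSEC-KO, levels of *Ly6c1* up to the 88.9 CPM of macrophage-like cells were not told apart from background. These levels take in the 57.3 CPM of the clusters shared with control, the 75.8 CPM of the cluster led by *Dnase1l3* and *Maf*, and the 56.5 CPM of cells with at least 5 *Maf* UMIs. The part of background in them was not tested.

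The other members behaved differently across classes. *Ly6e* was higher in macrophage-like cells (1941 CPM in control, 2196 CPM in Maf LSEC-KO) than in LSECs of either library, and at 2025 CPM in cholangiocyte-like cells of Maf LSEC-KO, with 10.9 UMIs per UMI of *Clec4g* in macrophage-like cells against 0.97 in LSECs. *Ly6a* had 5.65 UMIs per UMI of *Clec4g* in Maf LSEC-KO macrophage-like cells against 2.35 in LSECs. This was not particular to macrophage-like cells, as the value was 6.21 in B cell-like, 5.84 in T/NK cell-like and 5.64 in cholangiocyte-like cells. In neutrophil-like cells it was 2.35. In macrophage-like cells *Gpihbp1* followed *Clec4g* more closely, with 1.09 in Maf LSEC-KO against 1.34 in LSECs, and 0.56 against 0.66 in control. For *Gpihbp1* the Maf LSEC-KO value was 1.21 in B cell-like, 1.79 in cholangiocyte-like and 2.20 in T/NK cell-like cells. In the unnamed Maf LSEC-KO cluster it was 0.42, while that of *Ly6a* was 2.48. In endothelial cells with a *Vwf* UMI, *Ly6c1* was at 99.0 CPM in control (161 cells) and 579 CPM in Maf LSEC-KO (1183 cells), and *Ly6a* was at 3398 and 4154 CPM. Different clusters made up this class in each library. In control, 67 of the 161 cells, of the cluster led by *Igfbp5*, held 160 of the 171 UMIs of *Ly6c1*, while in Maf LSEC-KO the largest part, 381 cells, came from the cluster led by *Ppbp* and *Nrgn*. In *Vwf*-positive cells of the clusters led by *Rspo3*, *Ly6c1* was at 10.5 CPM in control (63 cells) and 108 CPM in Maf LSEC-KO (155 cells).

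**Figure D4:**
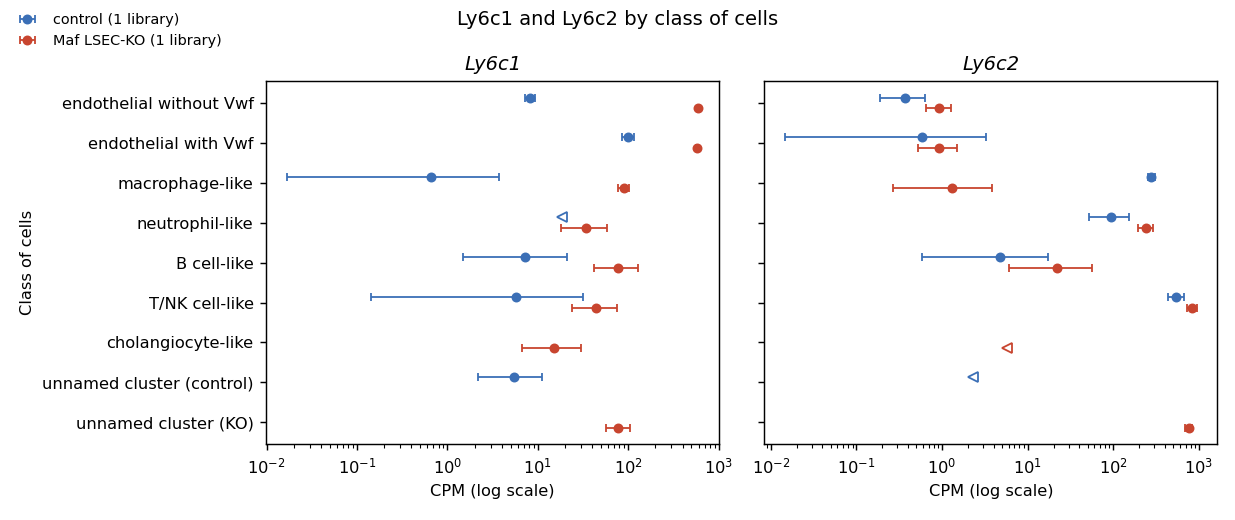
Level of *Ly6c1* and *Ly6c2* by class of cells, in CPM on a log scale with exact 95% Poisson intervals, for control (blue) and Maf LSEC-KO (red); open triangles mark the limit that a count of 0 allows. *Ly6c1* is highest in the endothelial classes of Maf LSEC-KO (592 and 579 CPM), and *Ly6c2* in T/NK cell-like cells and the unnamed Maf LSEC-KO cluster (541 to 833 CPM).

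Single cells often held several members. In thinned cells, at least 3 of the 5 members were found in 46.8% of control and 83.9% of Maf LSEC-KO LSECs, and 4 of them in 1.05% and 45.1%. In Maf LSEC-KO, *Ly6a* and *Ly6c1* were both found in 50.1% of cells (48.3 to 51.9), where the product of the single shares is 47.9%. Of cells with a *Ly6a* UMI 53.4% had *Ly6c1*, and of cells without one 16.6%. For *Ly6c1* and *Ly6e* both were found in 47.5% of cells against a product of 44.3%, and for *Ly6c1* and *Gpihbp1* in 48.7% against 47.7%. *Maf* and *Ly6c1* were found together in 2.68% of cells (2.13 to 3.31), where the product is 5.59%. In control 49 of the 51 thinned LSECs with *Ly6c1* also had *Ly6a*, and 49 had *Maf*.

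**Figure D5:**
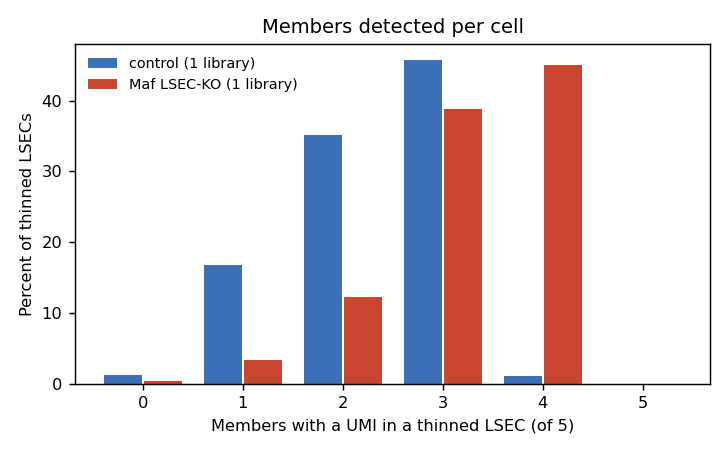
Percent of thinned LSECs by the number of members with a UMI, from 0 to 5, for control (blue) and Maf LSEC-KO (red). The control bars are highest at 3 members (45.7%) and the Maf LSEC-KO bars at 4 members (45.1%).

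Over the 3065 thinned Maf LSEC-KO LSECs, the log counts of the members went up and down together among 4112 genes of at least 50 CPM. The points share the depth of 2700 UMIs and the library, and the values are descriptions. The gene most like *Ly6c1* was *Ly6a* (Pearson's r = 0.49), followed by *Ly6e* (0.37), *Ifitm3* (0.34), *H2-D1* (0.29) and *Bst2* (0.26). For *Ly6a* the 5 genes were *Ly6c1* (0.49), *Ly6e* (0.48), *Ifitm3* (0.48), *B2m* (0.36) and *H2-D1* (0.35), and for *Ly6e* they were *Ly6a*, *Ifitm3* (0.43), *H2-D1* (0.39), *H2-K1* (0.38) and *Ly6c1*. For *Gpihbp1* they were *Ly6a* (0.31), *Clec4g* (0.29), *Itm2b* (0.28), *Ifitm3* (0.28) and *B2m* (0.28). Between *Gpihbp1* and *Ly6c1* the value was 0.18. The values between *Ly6c2* and each other member lay between −0.03 and 0.

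Beside the members, 33 other genes of the Ly6 and uPAR family were in the tables, and 15 had at least 10 UMIs in the LSECs of either library. Of these, 5 were at least 2-fold higher and 4 at least 2-fold lower in Maf LSEC-KO, with a median log2 ratio of 0.61. Over all 15074 genes past this minimum, 18.6% were at least 2-fold higher and 6.71% at least 2-fold lower, with a median of 0.19. *Plaur*, the urokinase receptor, was at 7.81 CPM in control and 28.2 CPM in Maf LSEC-KO (log2 ratio 1.85, 1.66 to 2.05). *Lypd6*, an extracellular modulator of Wnt signalling and of acetylcholine receptors, was at 17.1 and 6.34 CPM (−1.43, −1.65 to −1.22). *Cd59a*, an inhibitor of the complement membrane attack complex and the most abundant of these genes, was at 611 and 437 CPM (−0.49, −0.51 to −0.46), and *Ly6g6d* was at 6.99 and 10.7 CPM (0.61).

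The other 11 were under 5 CPM in both libraries. *Cd59b* (9 UMIs in control, 52 in Maf LSEC-KO), *Lynx1* (7 and 37), *Ly6g6c* (2 and 16) and *Ly6m* (3 and 10) were at least 2-fold higher, although the interval of *Ly6m* reached below 0 on the log2 scale (−0.51 to 3.95). *Ly6f* (42 and 2 UMIs), *Lypd1* (39 and 12) and *Ly6d* (11 and 5) were at least 2-fold lower, and the interval of *Ly6d* reached above 0 (−3.30 to 0.22). The *Lypd1* UMIs came from few cells, 0.073% of control and 0.18% of Maf LSEC-KO LSECs, so a larger share of Maf LSEC-KO cells had one although the sum was lower. *Ly6g6e* (44 and 96), *Ly6g5b* (9 and 19), *Ly6i* (19 and 29) and *Ly6g6f* (27 and 19) lay between. The family as a whole therefore had members in both directions, most of them at very low counts.

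The stretch of chromosome 15 from *Ly6e* to *Gpihbp1*, looked at after the values of the members were known, holds 13 genes of the tables, members included. Beside the members, 3 had at least 10 UMIs. *Gm28068*, which lies between *Ly6a* and *Ly6c1*, was at 1.70 CPM in control and 5.42 CPM in Maf LSEC-KO (log2 ratio 1.67, 1.24 to 2.12), *Ly6i* was at 0.58 and 0.72 CPM, and *Ly6f* at 1.28 and 0.05 CPM. The log2 interval of *Ly6i* ran from −0.56 to 1.24, and *Ly6f* rests on 42 and 2 UMIs. Neighbours in this stretch thus did not share one direction, but at low counts.

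GPIHBP1 works with lipoprotein lipase and with proteins that take up its products, and 23 of 24 genes of this system had at least 10 UMIs. Of these, 7 were at least 2-fold higher and 2 at least 2-fold lower in Maf LSEC-KO, with a median log2 ratio of 0.59, against 18.6% and 6.71% of all genes past the same minimum. Most of the 7 higher genes were under 5 CPM in both libraries, so this count rests largely on sparse genes. *Lpl*, the lipase itself, was at 4.04 CPM among control LSECs, against 8.16 CPM for Maf LSEC-KO (log2 ratio 1.01, 0.72 to 1.32), and *Lpl* was also among the leading genes of the Maf LSEC-KO macrophage-like cluster. *Fabp5*, a carrier of fatty acids, was at 655 and 1390 CPM (1.09, 1.06 to 1.11), and *Pparg*, a lipid-sensing nuclear receptor, at 4.16 and 14.1 CPM (1.76, 1.48 to 2.04). *Fabp4*, a second fatty acid carrier, was at 1233 and 2036 CPM (0.72), and *Cd36*, a fatty acid receptor, at 1097 and 1894 CPM (0.79), both less than 2-fold apart.

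Of the genes that make or hold active lipase, *Lmf1*, needed for its folding, had a log2 ratio of 0.26, *Sel1l*, its partner in the endoplasmic reticulum, of −0.80 (196 and 112 CPM), and the surface proteoglycan *Sdc4* of −0.06. The lipoprotein receptors *Lrp1* and *Scarb1* had log2 ratios of 0.59 and 0.39, and the fatty acid transport proteins *Slc27a3* and *Slc27a4* of 0.22 and −0.23. *Apoc3*, a hepatocyte gene that inhibits the lipase, was at 5.20 and 2.39 CPM (−1.12), beside a summed level of the hepatocyte markers of 113 CPM in control and 56.2 CPM in Maf LSEC-KO. *Gpihbp1* itself, at a ratio of 1.02, was nearer to 1 than *Lpl*, *Cd36*, *Fabp4* and *Fabp5*.

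Since *Ly6a* and *Ly6e* are known to respond to interferon, 28 interferon-stimulated genes were set beside them. Of these, 6 were at least 2-fold higher in Maf LSEC-KO and 0 at least 2-fold lower, with a median log2 ratio of 0.63, against 18.6%, 6.71% and 0.19 over all genes with at least 10 UMIs. Nearly all of the 28 genes also had at least 50 CPM in either library. Over all genes past that minimum, 8.13% were at least 2-fold higher and 5.54% at least 2-fold lower. How the count of 6 of 28 stands to the share of all genes thus depends on the minimum. The highest ratios were those of *Ifi27l2a* (2.14, 69.2 and 306 CPM), *Isg15* (1.71, 131 and 430 CPM) and *Zbp1* (1.61, 24.6 and 75.3 CPM), and the lowest those of *Gbp4* (−0.08), *Ifit2* (−0.08) and *Stat2* (−0.04). *Ly6a* (1.70) and *Ly6e* (1.23) were within this range, and *Ly6c1* (6.17) was above all of it.

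The 5 members share the GPI anchor, and 26 genes of its synthesis and transfer had at least 10 UMIs. Among them 1 was at least 2-fold higher and 0 were at least 2-fold lower, with a median log2 ratio of 0.13, against 18.6%, 6.71% and 0.19 over all genes with at least 10 UMIs. The highest were *Pigw* (1.42, 3.40 and 9.08 CPM), *Pigf* (0.77) and *Pgap2* (0.76), and the lowest *Pigg* (−0.35), *Pigb* (−0.33) and *Pigv* (−0.32).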

How the data were processed

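Droplet 3′ libraries of control and Maf LSEC-KO liver endothelial cells, 1 per condition, were analysed from the UMI counts deposited by the authors, whole numbers per gene and barcode without normalization, made with Cell Ranger 6.0.2 against mm10; Seurat 5.0.1 is also named in the submitters' processing notes. The subtraction of empty droplets was not repeated. The members and gene lists were chosen with earlier results of these data known. Clustering was done per library on barcodes that had 1500 UMIs and 750 genes or more (Seurat 5.3.0, R 4.3.3, 16 and 20 principal components, resolution 0.3) without the members and Ly6 family genes. The automatic limit of Scrublet (scanpy 1.11.5) marked 0 doublets, so the 225 control and 308 Maf LSEC-KO cells with the highest scores were removed by expected rate. Endothelial-like clusters had *Pecam1* and at least 7 of 14 endothelial genes in 50% of cells or more and none of *Adgre1*, *Clec4f*, *Ptprc*, *Cd52*, *Acta1* and *Arg1* in over 50%, and cells with a *Vwf* UMI were left out. Other clusters were named from at least 3 markers among their 50 leading genes. LSECs of both libraries were merged with SCTransform 0.4.2 (3000 variable genes, 22 components, resolution 0.3).

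CPM were scaled by the UMIs that remained after mitochondrial and ribosomal protein genes were set aside, 32909029 for the control LSECs and 40209521 for the Maf LSEC-KO LSECs. LSECs had from 1512 to 53852 UMIs in control and from 1506 to 103948 in Maf LSEC-KO. Intervals are exact at 95% (Poisson for sums, conditional for ratios, Clopper-Pearson for shares; scipy 1.17.1) and cover counting error only, and 0 counts allow a level of up to 3 counts. Thinning drew 2700 UMIs per cell and could not be done for 406 control cells and 187 Maf LSEC-KO cells. The computation was tested on simulated data. Genes named were the members, family genes with at least 10 UMIs, lipase system genes of at least 5 CPM (1 is not reported here), the 3 highest and 3 lowest ratios of the other lists, and the 5 genes most correlated with each of 4 members. Alternatives covered scaling, cell weights, thinning, doublets, the *Vwf* rule, minima, mitochondrial UMIs, cells or clusters with genes of other types, clustering and *Maf* classes.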

Additional observations from a re-analysis of the deposited data

How the results depend on the processing

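No paired analysis was possible because the labels carry no replicate numbers and each condition is 1 library. Of 71 alternative values, 46 moved by less than counting error. The log2 ratios of *Ly6c1*, *Ly6a*, *Ly6e* and *Gpihbp1*, 6.17, 1.70, 1.23 and 0.04 in the report, were 5.98, 1.51, 1.04 and −0.15 when scaled by the UMIs of all genes. Scaling by the median of ratios gave 1.59, 1.13 and −0.070 for the last 3 of these genes, the mean of CPM per cell 1.73, 1.33 and 0.067, and thinning 1.72, 1.31 and 0.0099. With *Vwf*-positive cells kept, *Ly6c1* was at 5.53 and *Ly6a* at 1.63. Without LSECs that carry 2 genes of another type, *Ly6a* was at 1.72 and *Ly6e* at 1.27. Without the clusters led by genes of another type, which also changed the make-up of the LSECs, the 4 genes were at 5.80, 1.40, 1.10 and −0.18. That alternative and the one without merged cluster 8 were chosen after seeing the data. The scalings shift all ratios by −0.19 (all genes) and −0.11 (median of ratios). The count of members at least 2-fold higher was 4 with *Ly6c2* and 3 after thinning, where *Ly6c2* had 7 cells with a UMI in each library and a log2 ratio of 0.44. The share of all genes at least 2-fold higher was 18.6% at a minimum of 10 UMIs and 25.4% with no minimum. The log2 ratio of *Ly6c1* between the highest and lowest Maf LSEC-KO-majority cluster was 1.93 with the members kept in the clustering (1.85 without), and that between *Maf* classes was −3.46 with thinned classes (−2.35 with all UMIs). Depth limits *Ly6c2* and the control level of *Ly6c1*, which rest on 12 and 270 UMIs.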
